A study of Oryctolagus cuniculus with 9 samples.

Results

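Rabbit vocal folds that had been injured and treated with a hydrogel called SOT were compared with injured folds left without treatment. The labels of both groups give 1 week, without stating whether it runs from injury or from treatment. The comparison used 6 of the 9 libraries of the series, 3 from SOT-treated and 3 from untreated folds, and 3 libraries from normal folds without injury served as a reference level. All members were chosen by their labels alone, and all 20525 genes of the deposited table were considered. The study title describes the hydrogel as adhesive and antioxidant, and the labels do not expand the name SOT. Strain, sex and age of the rabbits, the method of injury and the time at which the gel was applied were not stated in the labels. Untreated folds received no gel, so an effect of covering the wound with a gel and an effect of its antioxidant property cannot be told apart in this design. The labels do not say that the 3 libraries of a group came from separate animals, so the p-values below measure the spread between these libraries, which may be technical in part.

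The vocal fold is a layered tissue in which stratified epithelium covers a soft connective tissue, the lamina propria, over skeletal muscle. After injury, neutrophils and then macrophages enter the wound, clear debris, release cytokines and proteases, and are followed by fibroblasts that lay down fibrillar collagen. A stiff, collagen-rich lamina propria with little elastin and hyaluronan is what is known as vocal fold scar. Neutrophils and macrophages also make reactive oxygen species through the phagocyte NADPH oxidase, which is the process an antioxidant material is meant to meet.

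The labels name the cells as histiocytes, an older word for tissue macrophages, while the tissue label is vocal fold. Macrophage markers were present, with summed levels over 19 markers of 1390 to 1640 FPKM (the deposited values per transcript length and library size) in untreated and 767 to 1110 FPKM in SOT libraries. Markers of other tissues were present as well: 22 stratified epithelium genes summed to 5190 to 8590 FPKM and 18 skeletal muscle genes to 502 to 5840 FPKM over the injured libraries. The libraries are therefore described as whole tissue. In whole tissue, fewer cells of a type and less RNA per cell cannot be told apart.

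Read counts were deposited per gene. Total counts lay between 49771566 and 50338111 for untreated folds and from 48444181 to 49434268 for SOT-treated folds. A level is given below as CPM, a read count relative to library size after scaling with trimmed means of M values (TMM), always in the order of replicates 1, 2 and 3. After a filter on low counts 17344 genes were tested, and a gene is said to have fallen or risen only when its adjusted p from edgeR's quasi-likelihood test was under 0.05. A log2 fold change is SOT minus untreated, and SE is its standard error. Groups are said not to overlap when all 3 SOT values lie on the same side of all 3 untreated values. Genomic positions, as the deposited table gives them, refer to OryCun2.0.

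Libraries did not vary alike within their groups. Over all tested genes the median SD of log2 CPM was 0.174 in untreated, 0.307 in SOT and 0.241 in normal folds. Untreated library 3 lay between untreated libraries 1 and 2 in 54.1% of tested genes, whereas each of the other 8 libraries lay between its own group's other members in 19.5% to 36.5%. Among 1570 genes of at least 1 CPM on average that were 2-fold or more apart between untreated libraries 1 and 2, untreated library 3 lay between them in 89.5%, and the same share was 53.4% to 63.4% for the 6 normal and SOT libraries. In those genes its level sat a median 0.626 of the way from library 1 to library 2, with quartiles of 0.519 and 0.725. How this library came to hold such intermediate values was not tested. If it were not independent of the other untreated libraries, the untreated SDs and the p-values given here for n = 3 would rest on 2 samples and be too small. The spread of the untreated group enters every p-value below, so the counts that lead the results are also given without this library. The median absolute log2 difference from the untreated libraries was 0.243 to 0.316 for SOT library 1, 0.302 to 0.306 for SOT library 2 and 0.331 to 0.455 for SOT library 3. Of the 3, SOT library 1 was the nearest to untreated libraries 1 and 3. SOT library 2 was the nearest to untreated library 2, at 0.306 against 0.316 for SOT library 1. The SOT libraries differed from each other by 0.322 to 0.365, more than the untreated libraries did (0.159 to 0.262).

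Few genes separated the groups once the spread was taken into account. By edgeR 2 of 17344 genes passed (0.0115%), both lower in SOT, and no gene was called higher. At an unadjusted p under 0.05 there were 877 genes higher and 1317 lower. On the same genes DESeq2 called 229 higher and 453 lower, and limma-voom called 4 higher and 29 lower. Without untreated library 3 edgeR called no gene in either direction. Without SOT library 1 it called 74 higher and 382 lower.

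Both genes that passed are annotated as signalling proteins known from myeloid cells. LOC103345297 is annotated as linker for activation of T-cells family member 2 (LAT2), an adaptor protein that mast cells, B cells and monocytes use downstream of immune receptors, and lies on an unplaced scaffold at 558412 to 562541. A separate entry under the symbol LAT2, with which it may share reads, was at 3.85, 4.05 and 4.08 CPM in untreated and 0.286, 0.935 and 1.17 CPM in SOT libraries and did not pass (adjusted p = 0.145, edgeR). The levels of LOC103345297 were 53.4, 67.8 and 62.3 CPM in untreated and 21.5, 24.9 and 23.0 CPM in SOT libraries, with 9.36, 10.8 and 9.96 CPM in normal folds. The groups did not overlap, and the 3 SOT libraries lay close together, between the normal and the untreated values. The gene fell 2.65-fold, from 61.2 ± 7.27 to 23.1 ± 1.7 CPM (SD, n = 3), a log2 fold change of -1.40 (SE 0.12, adjusted p = 0.0219, edgeR).

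LOC103346274 is annotated as CMRF35-like molecule 6, of the CD300 family of receptors on myeloid cells that bind lipids and pass on activating or inhibiting signals, and lies on another unplaced scaffold at 255789 to 261711. Its levels were 11.7, 9.19 and 12 CPM in untreated and 2.06, 1.68 and 2.16 CPM in SOT libraries, against 0.83, 0.968 and 1.18 CPM in normal folds. All 3 SOT libraries were low and close together. The gene fell 5.56-fold, from 10.9 ± 1.53 to 1.97 ± 0.251 CPM (SD, n = 3; log2 fold change -2.47, SE 0.22, adjusted p = 0.0219, edgeR). Other annotated copies of this receptor neighbour it, and reads may have been divided among them. Both calls were sensitive to the libraries: without untreated library 3 both had an adjusted p of 0.174, without SOT library 3 they had 0.197 (LAT2-like) and 0.161 (CMRF35-like), and without SOT library 1 they had 0.00971 and 0.0104. Leaving out SOT library 2 gave 0.0924 for both, untreated library 1 gave 0.0489 and 0.0537, untreated library 2 gave 0.0664 and 0.0526, and the normal libraries gave 0.053, 0.0595 and 0.0632 for both. The log2 fold changes over these 9 fits stayed between -1.49 and -1.32 for the LAT2-like gene and between -2.59 and -2.36 for the CMRF35-like gene.

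Without a further call, the comparison rests on effect sizes and on whether the groups overlapped. Of the tested genes 1283 (7.4%) lay above and 2155 (12.4%) below all untreated libraries in all 3 SOT libraries. Counts of list members given below use TMM unless stated and are to be read beside these shares. A fold change of at least 2 was also met by 333 genes higher (1.92%) and 516 genes lower in SOT (2.98%). The balance between the directions depended on the scaling. With the deposited FPKM 2852 genes (16.4%) lay above and 1183 (6.82%) below. On that scale the median log2 difference of all tested genes was 0.136, whereas this median was -0.003 with TMM. Upper-quartile factors gave 1832 above and 1597 below. With a fold of at least 2 the deposited FPKM gave 302 higher and 344 lower. In the plot of fold change against level, the slanted lines of points at the left are genes without counts in a group, whose fitted fold depends on the prior count and is no measured size. Of the genes named below, INHBA, PCNA, MKI67, PDIA4, KRT16, HAS2, HGF, GPX1, NFE2L2, CSF3, FBN1, PLOD2 and CD74 lay below the untreated range with TMM and overlapped with the deposited FPKM, and ACAN, SOD2 and DHODH overlapped with TMM and lay above with the deposited FPKM.

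**Figure D1:**
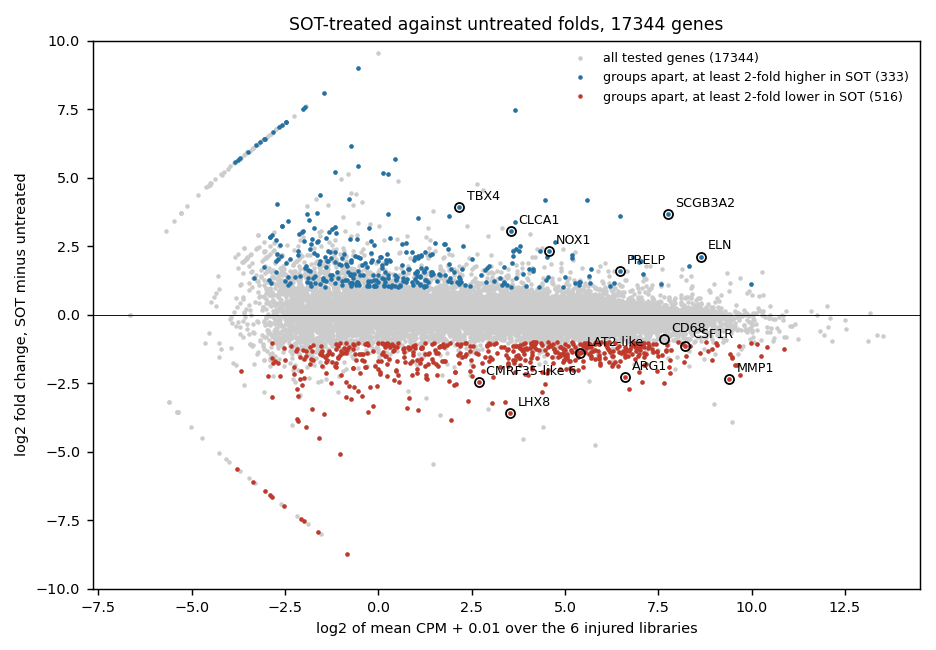
Each point is a tested gene, with its log2 fold change (SOT minus untreated) on the vertical axis and the log2 of its mean CPM plus 0.01 over the 6 injured libraries on the horizontal axis. Blue points are the 333 genes whose groups did not overlap and that were at least 2-fold higher in SOT, red points the 516 at least 2-fold lower, grey points all other tested genes, and circles mark genes named in the text.

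Macrophage genes lay below the untreated range as a group. Of 19 macrophage markers measured and tested, 14 lay below all untreated libraries in all SOT libraries and none above, beside 12.4% of all tested genes below, and their median log2 fold change was -0.89 beside 0.01 over all tested genes. None passed the edgeR test, while DESeq2 called 9 lower. The count was also 14 without untreated library 3 and without SOT library 1, settings under which 13.9% and 20.9% of all tested genes lay below, and it was 13 with the deposited FPKM. The 3 SOT libraries had list medians of -0.80, -0.89 and -1.39 relative to the untreated mean. No macrophage marker was without counts in an injured library. The 2 genes that fell moved with these markers, whose part in their difference was not tested.

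CD68, a lysosomal glycoprotein used to mark macrophages, on chromosome 19 at 11598423 to 11600560, was at 250, 264 and 276 CPM in untreated and 153, 142 and 130 CPM in SOT libraries. The groups were far apart for their spread, at 263 ± 13.3 against 142 ± 11.6 CPM (SD, n = 3), yet the difference of -0.89 in log2 (SE 0.13) had an adjusted p of 0.0749 by edgeR. Normal folds held 29.9, 33.1 and 40.1 CPM, so the SOT libraries remained well above them. CSF1R, the receptor for the growth factor that macrophages need to survive, on chromosome 3 at 31834455 to 31858288, was at 337, 459 and 423 CPM in untreated and 222, 182 and 154 CPM in SOT libraries (log2 fold change -1.13, SE 0.17, adjusted p = 0.0824). CD14, the co-receptor for bacterial lipopolysaccharide, was at 295, 366 and 371 CPM against 163, 94.4 and 67.7 CPM. ITGAM, an integrin chain of macrophages and neutrophils, was at 133, 170 and 153 CPM against 76.9, 41.8 and 42.4 CPM. In each of these genes every SOT library lay below every untreated one.

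Markers linked to tissue-repair or resident macrophages lay lower as well. MRC1, the mannose receptor, was at 160, 145 and 147 CPM in untreated and 125, 55.0 and 44.6 CPM in SOT libraries. CD163, a scavenger receptor for haemoglobin, was at 111, 117 and 117 CPM against 86.7, 64.7 and 29.2 CPM. TREM2, a lipid-sensing receptor, was at 49.1, 80.9 and 66.4 CPM against 36.3, 34.7 and 24.5 CPM. These 3 did not overlap between the groups either. The 5 macrophage markers that overlapped included APOE, which carries lipids, SPP1, which encodes osteopontin, and the complement gene C1QC, with log2 fold changes of -0.33, -0.07 and -0.17. The deposited identifier of the C1QC entry now belongs to the neighbouring C1QA in RefSeq, so these genes cannot be told apart here. MARCO, a scavenger receptor, had a log2 fold change of 1.08 with overlapping groups.

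The 12 genes lower in SOT with the smallest p among non-overlapping genes with a symbol included CD68 and CYBB. ARG1, which encodes the arginase that turns arginine into ornithine, on chromosome 12 at 121799266 to 121811748, was at 185, 136 and 160 CPM in untreated and 44.6, 20.7 and 34.4 CPM in SOT libraries (log2 fold change -2.27, SE 0.32, adjusted p = 0.0749, edgeR). The SOT libraries overlapped with the normal libraries, at 26.0, 30.6 and 46.5 CPM. SIRPA, an inhibitory receptor of myeloid cells for the signal CD47, was at 607, 790 and 753 CPM against 410, 323 and 303 CPM. TFEC, a transcription factor of macrophages related to MITF, was at 40.4, 58.3 and 59.2 CPM against 21.1, 21.9 and 18.3 CPM. In all 3 the SOT libraries lay below the untreated ones.

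LY86, which pairs with a Toll-like receptor relative on B cells and myeloid cells, was at 19.4, 21.1 and 21.2 CPM in untreated and 9.98, 9.87 and 10.3 CPM in SOT libraries, with SOT values close to each other. JAML, an adhesion molecule of leukocytes, was at 92.5, 131 and 110 CPM against 42.3, 22.7 and 36.4 CPM. VDR, the vitamin D receptor, was at 17.4, 22.6 and 22.3 CPM against 7.03, 7.18 and 6.39 CPM. The log2 fold changes of 3 others were smaller: SLC43A2, an amino acid transporter, had a log2 fold change of -0.93, EPB41L3, a membrane skeleton protein, of -0.92 and MAN2B1, which encodes lysosomal alpha-mannosidase, of -1.0. Another annotated copy of the mannosidase gene exists, and the 2 may share reads. LHX8, a homeodomain factor of the developing forebrain and jaw, was the largest of the 12 by fold, at 14.8, 29.4 and 20.0 CPM against 2.96, 0.654 and 1.69 CPM. Each of the 12, CD68 and CYBB included, had an adjusted p of 0.0749 by edgeR with all libraries. They passed without SOT library 1, with adjusted p from 0.0124 to 0.0325. None of the 12 passed without SOT library 2 or 3, or without untreated library 2 or 3.

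**Figure D2:**
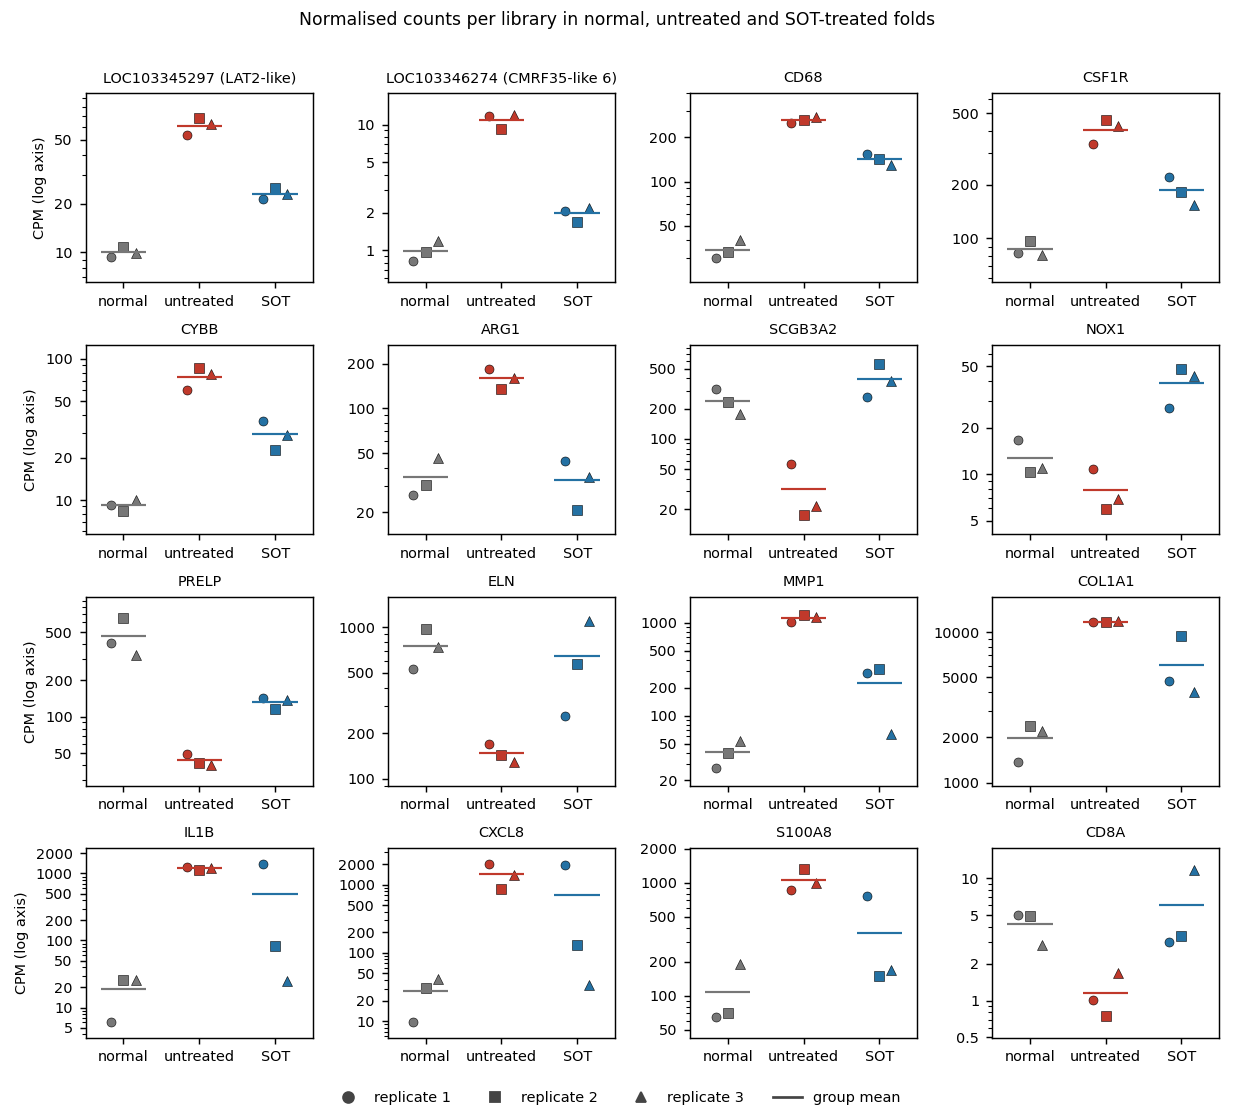
TMM-normalised CPM on a log axis for each library of normal, untreated and SOT folds, with 1 panel per gene, symbols for the replicates and a bar at each group mean. In CD68 the SOT libraries lie between 130 and 153 CPM and the untreated libraries between 250 and 276 CPM, and in IL1B the SOT libraries spread from 25 to 1390 CPM.

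Neutrophil and cytokine genes split the SOT group. Neutrophils are the earliest leukocytes in a wound and answer to CXCL8 through CXCR1 and CXCR2. Of 12 neutrophil markers tested, 7 lay below all untreated libraries and none above, beside 12.4% of all tested genes below. With the deposited FPKM 4 of the 12 lay below, beside 6.82% of all tested genes. The median log2 fold change of the list was -1.54. The SOT library medians were -0.27, -2.88 and -3.84, so that SOT library 1 was close to the untreated group and the other SOT libraries were far below it. In SOT libraries 2 and 3 all 12 markers lay below the untreated range, and in SOT library 1 there were 7 below and 5 within. None passed by edgeR with all libraries, and 8 passed as lower without SOT library 1. Summed levels of the list were 7070 to 9530 FPKM in untreated libraries and 7040, 2970 and 3560 FPKM in SOT libraries.

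CXCR2 was at 86.0, 147 and 124 CPM in untreated and 78.1, 15 and 5.07 CPM in SOT libraries. S100A8, a calcium-binding protein that neutrophils hold in large amounts, was at 865, 1340 and 996 CPM against 761, 149 and 168 CPM. LTF, which encodes the iron-binding lactoferrin of neutrophil granules and of glands, was at 327, 130 and 225 CPM against 97.0, 7.66 and 19.8 CPM. FCGR2A, an antibody receptor of neutrophils and macrophages, was less uneven, at 16.4, 21.2 and 19.5 CPM against 9.91, 4.99 and 5.18 CPM (log2 fold change -1.51, SE 0.29, adjusted p = 0.137, edgeR). SOT library 1 held the highest SOT value in each of these 4.

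Cytokine genes showed a split of the same kind. IL1B, which encodes interleukin-1 beta, a main early signal of wound inflammation, was at 1260, 1110 and 1210 CPM in untreated and 1390, 83.1 and 25 CPM in SOT libraries. SOT library 1 exceeded all untreated libraries, while SOT library 3 was at the normal level of 6.06 to 25.9 CPM. CXCL8, the main neutrophil attractant, was at 2020, 871 and 1410 CPM against 1980, 132 and 33.4 CPM. TNF, which encodes tumour necrosis factor, was at 114, 39.9 and 75.7 CPM against 168, 4.8 and 5.09 CPM. IL6 was at 47.1, 16.5 and 28.9 CPM against 19.7, 5.81 and 0.632 CPM. With all libraries these 4 genes had adjusted p of 0.702, 0.771, 0.924 and 0.492 by edgeR, and their groups overlapped. IL1B and TNF passed as lower without SOT library 1.

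Over 26 cytokine and chemokine genes the SOT library medians were 0.23, -0.87 and -2.01, and the list median was -0.60. SOT library 1 lay below the untreated range in 5 and above it in 10 of the genes, whereas SOT libraries 2 and 3 lay below it in 19 each. Without SOT library 1, 16 of the 26 lay below all untreated libraries in both others, beside 20.9% of all tested genes, and 4 did with it. The 4 were CCL7, a monocyte attractant, IL10, an anti-inflammatory cytokine, and the growth factors CSF2 and CSF3. CCL7 was at 55.0, 34.9 and 44.3 CPM in untreated and 25.3, 21.8 and 3.42 CPM in SOT libraries. IL10 was at 5.82, 5.07 and 5.36 CPM against 4.64, 3.23 and 1.64 CPM.

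IL18 and IL26 lay above all untreated libraries. IL18, a cytokine of the inflammasome that epithelium stores, was at 129, 135 and 132 CPM in untreated and 140, 216 and 229 CPM in SOT libraries. IL26, which T cells make, was without counts in the untreated libraries and had 8, 2 and 37 counts in the SOT libraries, at least 4.69-fold higher on average than the floor of 3 counts per library. SOT library 3 held 37 of the 47 counts, SOT library 2 was under the floor, and without SOT library 3 the bound was 1.59-fold. Normal folds held 4.03, 7.15 and 5.7 CPM of IL26, above all injured libraries.

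**Figure D3:**
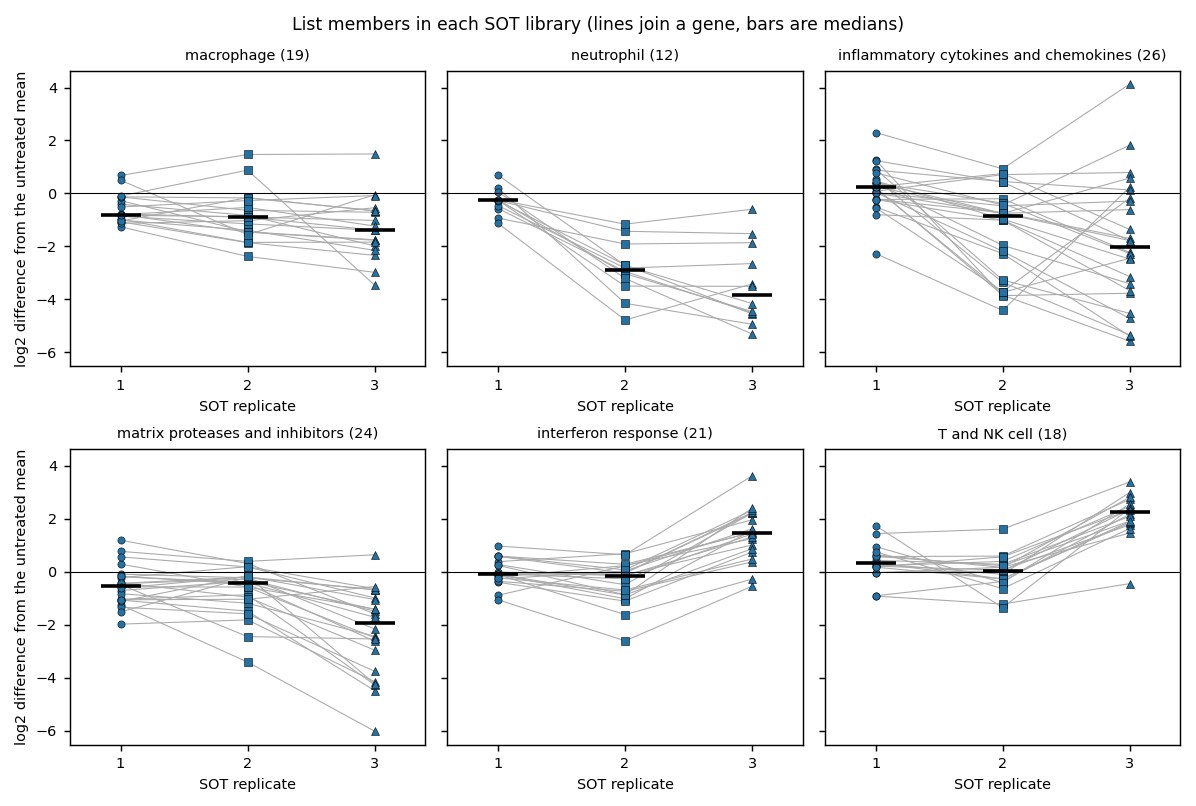
Log2 difference of each list member from the untreated mean in the 3 SOT libraries, for 6 gene lists, with lines joining the values of a gene and black bars at the medians. The medians sit close together for macrophage markers (-0.80, -0.89 and -1.39) and wide apart for neutrophil markers (-0.27, -2.88 and -3.84) and cytokines (0.23, -0.87 and -2.01).

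Genes for the production of reactive oxygen species lay on both sides. CYBB, the catalytic subunit of the phagocyte NADPH oxidase, on chromosome X at 23358936 to 23394566, was at 60.6, 86.3 and 78.1 CPM in untreated and 36.1, 22.7 and 28.7 CPM in SOT libraries (log2 fold change -1.36, SE 0.20, adjusted p = 0.0749, edgeR). Its cytosolic partners NCF1, NCF4 and RAC2 also lay below the untreated range in all SOT libraries, with log2 fold changes of -1.43, -1.14 and -0.90. The macrophage markers named above, with 14 of 19 below the untreated range, and the neutrophil markers moved with these genes, and their part in the difference was not tested.

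NOX1, the related oxidase of epithelial and smooth muscle cells, on chromosome X at 88493924 to 88518606, lay on the other side. It was at 10.8, 5.9 and 6.89 CPM in untreated and 26.9, 47.8 and 43.0 CPM in SOT libraries, against 16.7, 10.4 and 10.9 CPM in normal folds. All SOT libraries exceeded all untreated and all normal libraries. The log2 fold change was 2.32 (SE 0.32, adjusted p = 0.0749, edgeR), a 4.99-fold difference, and the gene passed without SOT library 1 (adjusted p = 0.0124). In the list of 14 genes 1 lay above and 4 below the untreated range, with a median of 0.00. The dual oxidases DUOX1 and DUOX2, NOX4 and XDH, which encodes xanthine oxidoreductase, overlapped between the groups.

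Antioxidant genes were divided with TMM. Of 22 antioxidant and NRF2 target genes, 4 lay above and 3 below all untreated libraries (18.2% and 13.6%), and none passed. Of all tested genes 7.4% lay above and 12.4% below. With the deposited FPKM 7 of the 22 lay above and 1 below, beside 16.4% and 6.82% of all tested genes. The 4 above with TMM serve glutathione: GCLC and GCLM form the enzyme that starts its synthesis, SLC7A11 imports cystine for it and GSR recycles it. GCLC was at 53.2, 49.2 and 53.1 CPM in untreated and 55.5, 143 and 97.0 CPM in SOT libraries. GCLM was at 29.9, 33.7 and 33.5 CPM against 39.9, 50 and 43.2 CPM. GSR was at 71.0, 57.2 and 53.4 CPM against 71.5, 121 and 105 CPM, so that SOT library 1 barely cleared the untreated range in GCLC and GSR.

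CAT, which encodes catalase, lay below, at 202, 230 and 224 CPM in untreated and 113, 142 and 147 CPM in SOT libraries (log2 fold change -0.71, SE 0.17, adjusted p = 0.189). The normal libraries held 113 to 174 CPM of CAT. GPX1, a glutathione peroxidase, and NFE2L2, which encodes NRF2 itself, lay below the untreated range with TMM but overlapped with the deposited FPKM, with log2 fold changes of -0.42 and -0.15. HMOX1 and NQO1, widely used readouts of NRF2, overlapped: HMOX1 was at 102, 123 and 120 CPM against 80.6, 126 and 62.6 CPM, and NQO1 at 41.6, 48.4 and 45.5 CPM against 33.6, 70.7 and 41.6 CPM. The superoxide dismutase genes SOD1, SOD2 and SOD3 had log2 fold changes of 0.33, 0.31 and 0.59 with overlapping groups, except that SOD2 lay above with the deposited FPKM.

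Of 16 genes of ferroptosis and iron handling, 4 lay below and none above with TMM, beside 12.4% and 7.4% of all tested genes. With the deposited FPKM 4 lay below and 2 above, beside 6.82% and 16.4%. The 4 below with TMM were the ferritin chains FTH1 and FTL, which store iron, and the lipoxygenases ALOX5 and ALOX15, which oxidise fatty acids. FTL was at 2220, 2540 and 2460 CPM in untreated and 1430, 1670 and 951 CPM in SOT libraries. ALOX15 was at 1.05, 0.806 and 0.963 CPM in untreated libraries, at 0.0748 CPM in SOT library 2 and without counts in SOT libraries 1 and 3. ALOX5, which makes leukotrienes in leukocytes, was at 58.3, 74.5 and 72.0 CPM against 40.9, 10.6 and 11.7 CPM. The list median was -0.26. Genes of the ferroptosis defence outside the antioxidant list, AIFM2 and DHODH, overlapped between the groups.

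In 19 genes of oxidative phosphorylation 1 lay above and none below, with a median of 0.12, and 3 lay above with the deposited FPKM. SDHD, a subunit of succinate dehydrogenase, was at 60.9, 50.8 and 53.6 CPM in untreated and 77.5, 64.5 and 93.5 CPM in SOT libraries. Of 24 hypoxia and glycolysis genes 6 lay below and none above, and their median was -0.48. SOT library 1 had a median of -0.06, close to the untreated mean, and SOT libraries 2 and 3 had -0.70 and -1.09. SLC16A3, a lactate exporter, was at 74.6, 99.3 and 96.7 CPM against 61.9, 19.8 and 11.4 CPM. HIF1A, the oxygen-regulated transcription factor subunit, was at 521, 722 and 665 CPM against 492, 369 and 159 CPM. Without SOT library 1, 18 of the 24 lay below, beside 20.9% of all tested genes. VEGFA, the vascular growth factor, was at 237, 245 and 249 CPM against 326, 264 and 157 CPM and showed no common direction.

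Fibrillar matrix genes, the substance of a scar, lay below the untreated range in 11 of 24 cases and above it in 1. Of all tested genes 12.4% lay below and 7.4% above. With the deposited FPKM 8 lay below and 1 above, beside 6.82% and 16.4% of all tested genes. The median log2 fold change was -0.54, and no member passed by edgeR. Summed levels were 12400 to 13400 FPKM in untreated and 6740, 13800 and 6940 FPKM in SOT libraries, so SOT library 2 exceeded the untreated libraries. COL1A1, which encodes a type I collagen chain (chromosome 19, 37474894 to 37490691), was at 11600, 11600 and 11900 CPM in untreated and 4770, 9400 and 4020 CPM in SOT libraries (log2 fold change -0.95, SE 0.35, adjusted p = 0.318). COL3A1, the type III collagen chain, was at 14400, 15000 and 14900 CPM against 5380, 12100 and 8300 CPM. COL12A1, a collagen on the surface of fibrils, was at 2520, 2630 and 2680 CPM against 1080, 1720 and 478 CPM. In all 3 the untreated libraries were nearly equal and the SOT libraries wide apart, with SOT library 2 the highest.

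COL6A3, a chain of the microfibrillar type VI collagen, had the smallest p of the list, at 663, 690 and 686 CPM in untreated and 350, 504 and 355 CPM in SOT libraries (log2 fold change -0.75, SE 0.21, adjusted p = 0.23, edgeR). The cross-linking enzymes LOX and LOXL2 and the collagen hydroxylases P4HA2 and PLOD2 also lay below the untreated range. LOXL2 was at 417, 611 and 553 CPM against 266, 371 and 163 CPM. FN1, which encodes fibronectin, overlapped, at 5990, 6240 and 6100 CPM against 3430, 10200 and 2480 CPM. The SOT library medians of the list were -0.83, -0.18 and -1.22.

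Matrix proteases lay below in 15 of 24 cases and above in none, beside 12.4% of all tested genes below, with a median of -0.79. The count depended on scaling, with 10 below by the deposited FPKM and 12 by upper-quartile factors. Of all tested genes 6.82% and 9.21% lay below on those scales. MMP1, the interstitial collagenase, on chromosome 1 at 113747022 to 113756573, was at 1010, 1220 and 1150 CPM in untreated and 285, 319 and 63.3 CPM in SOT libraries (log2 fold change -2.35, SE 0.54, adjusted p = 0.173, edgeR). Normal folds held 27.5 to 53.6 CPM, so SOT library 3 was close to them. MMP3, stromelysin, was at 285, 381 and 359 CPM against 142, 31.9 and 5.18 CPM. MMP9, the gelatinase of neutrophils and macrophages, was at 275, 164 and 231 CPM against 104, 77.5 and 9.7 CPM. CTSS, a cathepsin of antigen-presenting cells, was at 364, 443 and 429 CPM against 197, 199 and 278 CPM. In the whole list SOT library 3 lay below the untreated range in 23 genes and SOT libraries 1 and 2 in 18 each. MMP13 and the inhibitor TIMP1 overlapped, TIMP1 at 233, 326 and 281 CPM against 340, 186 and 49.5 CPM.

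Genes of TGF-beta signalling, the main driver of fibrosis, were mixed: 4 of 19 lay below and 2 above, with a median of -0.28. With the deposited FPKM 3 lay below and 3 above. TGFB1 was at 41.2, 49.7 and 46.6 CPM in untreated and 32.3, 32.6 and 23.8 CPM in SOT libraries (log2 fold change -0.63, SE 0.16, adjusted p = 0.193). Its target TGFBI was at 1310, 1670 and 1600 CPM against 862, 938 and 384 CPM. INHBA, an activin chain, also lay below with TMM and overlapped with the deposited FPKM. ACTA2, the smooth muscle actin of myofibroblasts, overlapped at 618, 400 and 474 CPM against 433, 639 and 152 CPM, as did TGFB3. LTBP2 and SMAD3 lay above, with log2 fold changes of 0.64 and 0.36.

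The elastic and small proteoglycan genes held members far on the other side. Elastin gives the vocal fold its recoil, and small leucine-rich proteoglycans bind collagen and limit the thickness of its fibrils. ELN was at 170, 144 and 130 CPM in untreated and 260, 571 and 1100 CPM in SOT libraries, against 533, 978 and 740 CPM in normal folds (log2 fold change 2.12, SE 0.47, adjusted p = 0.169, edgeR). PRELP, a proteoglycan that ties matrix to basement membrane, on chromosome 16 at 68341649 to 68353884, was at 49.7, 41.8 and 40.3 CPM against 144, 117 and 138 CPM (log2 fold change 1.60, SE 0.25, adjusted p = 0.0829). FMOD, which encodes fibromodulin, was at 16.9, 12.6 and 10.6 CPM against 33.7, 63.1 and 82.8 CPM. In all 3 the SOT libraries lay above the untreated ones. Normal folds held 321 to 657 CPM of PRELP and 189 to 415 CPM of FMOD, above all SOT libraries. All 3 passed by edgeR without SOT library 1, with adjusted p of 0.0156, 0.0383 and 0.0189. None of the 3 passed without SOT library 2 or 3, or without untreated library 2 or 3.

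Of the 22 genes in that list 3 lay above and 6 below with TMM, beside 7.4% and 12.4% of all tested genes. With the deposited FPKM 5 lay above and 4 below, beside 16.4% and 6.82%. Those below with TMM included FBN1 and FBN2, which encode the fibrillins of microfibrils, and FBLN2, a fibulin. DCN, which encodes decorin, and ASPN, which encodes asporin, were also below. DCN was at 1220, 1240 and 1210 CPM in untreated and 804, 906 and 784 CPM in SOT libraries, while normal folds held 1470 to 2260 CPM. ASPN was at 1130, 1540 and 1450 CPM against 645, 917 and 439 CPM. HAS2, a hyaluronan synthase, lay below with TMM, at 56.3, 45.1 and 48.3 CPM against 29.4, 41.0 and 10.5 CPM, and overlapped with the deposited FPKM. HGF, a growth factor studied for its anti-fibrotic action in the vocal fold, behaved alike, with a log2 fold change of -0.60. The list median was 0.11, and it was -0.07 without SOT library 1 and -0.25 without SOT library 2.

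The 12 non-overlapping genes with the smallest p and higher levels in SOT included NOX1 and PRELP, described above. SCGB3A2, a secretoglobin of airway secretory cells, on chromosome 3 at 29824560 to 29830604, was at 55.6, 17.4 and 21.3 CPM in untreated and 263, 560 and 374 CPM in SOT libraries. The difference was 12.7-fold (log2 fold change 3.67, SE 0.52, adjusted p = 0.0749, edgeR), and normal folds held 175 to 311 CPM. TBX4, a T-box factor of lung and trachea mesenchyme, on chromosome 19 at 27646321 to 27677635, was at 0.795, 0.785 and 0.0838 CPM against 6.5, 9.38 and 9.33 CPM, with 12 to 23.7 CPM in normal folds. BMP5, a bone morphogenetic protein, was at 8.22, 8.19 and 6.81 CPM against 20.2, 20.8 and 33.3 CPM. EPHA7, a receptor for ephrins, was at 11.4, 3.69 and 4.98 CPM against 31.8, 35.9 and 32.3 CPM, with 70.9 to 115 CPM in normal folds.

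SIX4, a homeodomain factor of muscle and placode development, had the tightest groups. It was at 42.3, 40.0 and 40.9 CPM in untreated and 60.8, 61.5 and 61.9 CPM in SOT libraries, a log2 fold change of 0.58 (SE 0.08, adjusted p = 0.0749, edgeR). The SOT values lay close together and above the normal 43.3 to 49.1 CPM. NOV, a matricellular protein also called CCN3, was at 10.8, 7.58 and 8.02 CPM against 20.5, 29.2 and 29.9 CPM. CLCA1, a secreted protein of goblet cells, was at 2.82, 2.7 and 1.99 CPM against 8.73, 37.7 and 16.4 CPM, and normal folds held 0.715 to 0.764 CPM. The other 3 were CYP39A1, an oxysterol hydroxylase, FAM150B, a ligand of receptor tyrosine kinases, and HHIPL2, with log2 fold changes of 0.82, 2.63 and 2.57. All 12, NOX1 and PRELP included, had adjusted p from 0.0749 to 0.115 by edgeR with all libraries. They passed without SOT library 1, with adjusted p from 0.00958 to 0.0448. None of the 12 passed without SOT library 2 or 3, or without untreated library 2 or 3.

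Airway secretory and ciliated genes lay above in 5 of 19 cases and below in none, with a median of 0.60. Of all tested genes 7.4% lay above. The SOT library medians of the list were 0.62, 0.86 and 0.92. SCGB1A1, the club cell secretoglobin, was at 8.22, 4.29 and 2.51 CPM in untreated and 69.2, 177 and 28.2 CPM in SOT libraries, and varied from 6.97 to 68.5 CPM in normal folds. DNAH5, a dynein of motile cilia, was at 1.34, 0.658 and 0.398 CPM against 2.29, 6.04 and 3.36 CPM. The list's untreated medians were 0.58, -0.37 and -0.05 and its summed levels 1290 to 1990 FPKM in untreated and 1260 to 2470 FPKM in SOT libraries, which overlap. Of the 19 genes 15 had a log2 fold change above 0 and 4 below. Relative to the untreated mean, the mucin gene MUC5AC was at -1.69, -0.06 and -1.81 in log2 in the SOT libraries. BPIFA1 was at 1.63, -2.0 and -1.01 and SCGB3A1 at 1.11, -2.43 and -0.47. SCGB3A2 and CLCA1 were thus not matched by every secretory marker, and the part of secretory tissue in their difference was not tested.

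Stratified epithelium genes did not separate the groups: 1 of 22 lay below, none above, and the median was 0.00. The member below was KRT16, a keratin of wounded epithelium, at 194, 495 and 406 CPM in untreated and 187, 36.3 and 27.3 CPM in SOT libraries, which overlapped with the deposited FPKM. Keratin reads may be shared between similar genes. KRT17, another wound keratin, overlapped at 371, 1220 and 898 CPM against 746, 436 and 137 CPM, and so did KRT5 of the basal and KRT13 of the upper layer.

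Interferon response and lymphocyte genes were carried by SOT library 3. Of 21 interferon genes 2 lay above and 2 below, and the SOT library medians were -0.09, -0.15 and 1.48. SOT library 3 lay above the untreated range in 19 of the 21, while SOT libraries 1 and 2 did so in 5 and 4. IRF7, a master factor of this response, was at 130, 104 and 119 CPM in untreated and 110, 113 and 555 CPM in SOT libraries. CXCL9, a T-cell attractant, was at 3.07, 4.86 and 4.52 CPM against 8.01, 6.37 and 50.7 CPM. The list median of 0.57 ranged from -0.12 to 0.87 when libraries were left out, and -0.12 was reached without SOT library 3.

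T and NK cell genes had SOT library medians of 0.32, 0.04 and 2.25, with 2 of 18 above, none below and a list median of 1.19. CD8A, the co-receptor of cytotoxic T cells, was at 1.02, 0.743 and 1.68 CPM in untreated and 3.03, 3.4 and 11.8 CPM in SOT libraries. CD3D, part of the T-cell receptor complex, was at 1.19, 1.27 and 0.921 CPM against 1.68, 1.7 and 7.64 CPM. Without SOT library 3 the list median was 0.25. B and plasma cell genes had SOT library medians of 0.02, -0.54 and 1.38, and 1 of 12 lay below. That gene was CD22, an inhibitory receptor of B cells, at 35.2, 35.2 and 36.9 CPM against 21.1, 19.8 and 26.7 CPM. Of 5 mast cell genes 2 lay below, MS4A2, a chain of the IgE receptor, at 7.84, 6.05 and 6.87 CPM against 2.25, 2.0 and 1.82 CPM, and HDC, which makes histamine.

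**Figure D4:**
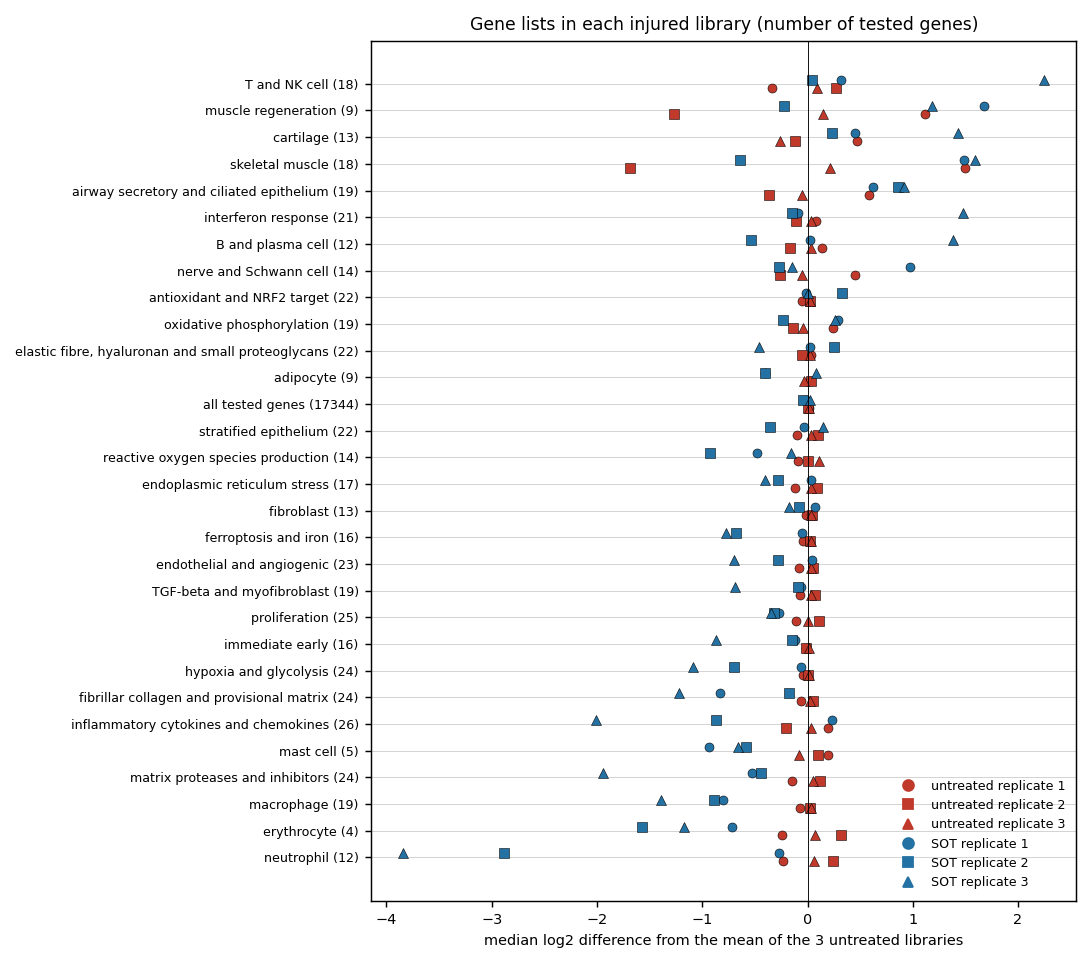
Median log2 difference from the mean of the 3 untreated libraries for each of 29 gene lists and for all tested genes, with untreated libraries in red and SOT libraries in blue. Neutrophil markers reach the lowest SOT value (-3.84, SOT library 3) and T and NK cell genes the highest (2.25, SOT library 3), while skeletal muscle spreads from -1.69 to 1.5 among the untreated libraries alone.

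Proliferation genes showed a small and even difference. Of 25 genes 18 lay below all untreated libraries and none above, beside 12.4% of all tested genes, and the SOT library medians were -0.27, -0.32 and -0.35. MKI67, the Ki-67 antigen, was at 128, 146 and 141 CPM in untreated and 108, 109 and 118 CPM in SOT libraries (log2 fold change -0.31, SE 0.35, adjusted p = 0.746, edgeR). PCNA, the clamp of DNA replication, was at 101, 114 and 103 CPM against 97.3, 81.5 and 83.1 CPM. The count depended on scaling, with 7 below and 1 above by the deposited FPKM, and no member had an unadjusted p under 0.05.

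Endoplasmic reticulum stress genes had a median of -0.10, with 3 of 17 below and 1 above. With the deposited FPKM 2 lay below and 3 above. The 3 below with TMM were the chaperone gene HSP90B1 and the disulfide isomerases PDIA4 and PDIA6, which fold secreted proteins. PDIA4 overlapped with the deposited FPKM. PDIA6 was at 523, 630 and 562 CPM in untreated and 446, 425 and 298 CPM in SOT libraries. ATF3, a stress-induced transcription factor, was the member above with TMM in this and in the immediate early list. It was at 53.5, 45.8 and 46.8 CPM against 71.1, 169 and 57.9 CPM. Of 16 immediate early genes 6 lay below, and the median was -0.35. Of 23 endothelial and angiogenic genes 5 lay below and none above, with a median of -0.27. With the deposited FPKM 2 lay below and 1 above. CDH5, which encodes the cadherin of endothelial junctions, lay below at 165, 183 and 179 CPM against 155, 141 and 86.8 CPM.

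Tissue composition varied within both groups. Skeletal muscle genes ranged over untreated library medians of 1.5, -1.69 and 0.21 and SOT library medians of 1.49, -0.64 and 1.59, and none of 18 separated the groups with TMM, while 1 lay above with the deposited FPKM. MYH4, a fast myosin, was at 1940, 33.0 and 798 CPM in untreated and 111, 31.8 and 143 CPM in SOT libraries. None of 9 muscle regeneration genes separated the groups, with a median of 0.91. Summed muscle levels were 502 to 4980 FPKM in untreated and 1340 to 5840 FPKM in SOT libraries, and their part in other differences was not tested.

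Cartilage genes lay below in 2 of 13 and above in none, with a median of 0.87 set mainly by SOT library 3 (0.45, 0.23 and 1.43). With the deposited FPKM 1 lay below and 2 above. ACAN, which encodes aggrecan, was at 23.2, 12.3 and 9.49 CPM in untreated and 41.0, 22 and 116 CPM in SOT libraries, and COL11A1 lay below at 242, 161 and 197 CPM against 45.9, 118 and 63.7 CPM. The cartilage list summed to 45.6 to 66.9 FPKM in untreated and 52.5, 56.5 and 173 FPKM in SOT libraries. FMOD, PRELP and ELN are also expressed in cartilage or perichondrium, and the part of cartilage in their difference was not tested.

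Nerve and Schwann cell genes had a median of 0.38, with 1 of 14 above (PMP22, a myelin protein, at 24.9, 18.3 and 22.3 CPM against 35.8, 29.4 and 29.4 CPM) and 1 below. Adipocyte genes had a median of 0.04, with 1 of 9 above and 3 below. With the deposited FPKM 1 lay above and 1 below. LEP, which encodes leptin, was the member above: it was without counts in the untreated libraries and had 4, 11 and 4 counts in the SOT libraries. Of 4 erythrocyte genes 3 lay below, among them ALAS2, the haem enzyme of red cells, at 8.1, 10.9 and 7.66 CPM against 4.6, 2.5 and 2.92 CPM. Of 13 fibroblast genes 3 lay below and none above with TMM, and the median was -0.13. Those below were DCN, VIM and COL15A1. With the deposited FPKM 3 lay below and 3 above.

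How evenly the 3 SOT libraries shared a difference was counted over all tested genes. At least 2-fold above the untreated mean there were 1775 genes in exactly 1 SOT library, 905 in 2 and 269 in all 3 (1.55%). At least 2-fold below there were 1969, 837 and 164 (0.946%). By library, SOT library 1 had 1420 genes above and 799 below at this fold, SOT library 2 had 1015 and 1692, and SOT library 3 had 1957 and 1644. SOT library 1 was thus the library with the fewest genes at least 2-fold lower.

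Of the 382 genes called lower without SOT library 1, that library itself lay below the untreated range in 284 (74.3%), within it in 70 and above it in 28. Of the 74 called higher it lay above in 53 (71.6%), within in 11 and below in 10. Its own median log2 difference over these genes was -0.43 and 0.51, beside fitted medians of -1.51 and 1.48 in the other SOT libraries. These genes were chosen for their values in the other SOT libraries, which favours a smaller difference in SOT library 1, and the counts are given as a description.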

How the data were processed

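Polyadenylated RNA of rabbit vocal folds was sequenced in 9 libraries, 3 per group. The submitters' processing notes name the build OryCun2.0 and the tools cutadapt 1.9, HISAT2 2.0.4, StringTie 1.3.4d and edgeR, the last without its version. They do not tell whether counting used strand or how it treated multiply matching reads. The authors deposited a whole-number read count and an FPKM value per gene and library, per the file headers.

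The tests on counts used edgeR 4.0.16 (R 4.3.3), with filterByExpr by group (minimum count 10), TMM scaling and a quasi-likelihood fit of 1 mean per group to all 9 libraries, with 6 residual degrees of freedom and Benjamini-Hochberg adjustment over 17344 genes. The fit was also run on simulated counts, drawn with independent libraries and a spread per gene that all groups shared. The groups here had unequal spread, so that run cannot speak for the p-values given above. Alternatives were RLE and upper-quartile scaling, no filter, DESeq2 1.42.0, limma 3.58.1 (voom, and log2 of FPKM plus 0.1 or 1), 6 libraries only, a replicate block, robust dispersions and leaving out each library. A gene without counts in a group was set against a floor of 3 counts per library (0.0557 to 0.0692 CPM), which covers counting error only, as reads were not tied to single molecules.

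A list is described by its counts and median beside all tested genes, without a test. Besides genes that passed, the text names the 12 non-overlapping genes per direction with a symbol, at least 1 CPM in the higher group and the smallest p, the 3 members of each list with the smallest p, and 35 genes chosen for wound inflammation, scar matrix, antioxidant defence and epithelial state. Other list members were named after their values were seen. The comparison, the lists and the named genes were chosen with earlier results of these data known. The table lists 5734 genes under a locus number, and 530 of these took their symbol from RefSeq (assembly mOryCun1.1, for names only). Gene sequences are not used here. A few genes of these lists are not reported here.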

Additional observations from a re-analysis of the deposited data

How the results depend on the processing

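The number of genes that passed depended on the method and on single libraries. The count higher and lower in SOT was 0 and 2 by edgeR, 229 and 453 by DESeq2, 4 and 29 by limma-voom, 0 and 4 by limma on log2(FPKM + 0.1) and 3 and 16 on log2(FPKM + 1). It was 0 and 1 with upper-quartile scaling, and 0 and 0 with the 6 libraries of the 2 groups only. Leaving out 1 library gave 0 to 74 higher and 0 to 382 lower. The highest counts came without SOT library 1. Without untreated library 1 they were 2 and 4, without SOT library 2 or 3 they were 0 and 1, and without untreated library 2 or 3 or any normal library 0 and 0. Genes whose groups did not overlap numbered 2852 higher and 1183 lower with the deposited FPKM, and without 1 library 1595 to 2836 higher and 2410 to 3619 lower, as fewer values must separate. With a fold of at least 2 these ranges were 400 to 776 and 539 to 988. The cause of the other differences was not tested.

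With the replicate number as a block in the edgeR fit, 0 genes passed in each direction. The deviations of same-numbered untreated and SOT libraries correlated at 0.1, 0.27 and -0.02, so the numbers were not taken to pair the samples. The adjusted p of the LAT2-like and the CMRF35-like gene were 0.0596 and 0.116 with the block, 0.106 and 0.0911 with 6 libraries, and 0.0542 and 0.0428 with upper-quartile scaling.

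Among list medians, proliferation was -0.25 with upper-quartile scaling, -0.18 on log2(FPKM + 0.1) and -0.16 on log2(FPKM + 1). The median of all tested genes was 0.08, 0.13 and 0.09 under the same settings and 0.05 with 6 libraries. Airway genes had 0.41 by limma-voom, 0.40 with the block and 0.28 on log2(FPKM + 1). On log2(FPKM + 0.1) and log2(FPKM + 1) mast cell genes had -0.56 and -0.13, and erythrocyte genes -0.72 and -0.51. Leaving out 1 library gave -0.37 to -0.27 for proliferation, -3.54 to -1.06 for neutrophil, -0.9 to 0.08 for reactive oxygen species, -0.76 to -0.14 for ferroptosis, -0.27 to 0.07 for fibroblast, -1.04 to -0.31 for mast cell, 0.48 to 1.0 for airway and -0.01 to 0.04 for all tested genes. It gave -1.17 to -0.22 for cytokines, -0.9 to -0.31 for fibrillar matrix, -0.81 to -0.24 for hypoxia, -0.36 to -0.07 for TGF-beta, -0.44 to -0.03 for immediate early, -0.4 to -0.07 for endothelial, 0.31 to 1.62 for skeletal muscle, 0.18 to 1.58 for muscle regeneration and 0.4 to 1.2 for cartilage. The sign turned for elastic fibre (-0.25 to 0.28), B and plasma cell (-0.04 without SOT library 3), interferon (-0.12 without SOT library 3), adipocyte (-0.15 to 0.13), stratified epithelium (-0.15 to 0.1), nerve (-0.04 without SOT library 1) and fibroblast genes (0.07 without untreated library 1, 0.03 without SOT library 3). The cause was not tested.

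Of the 138 genes named by rule 7 changed sign. VEGFA had a log2 fold change of -0.03 by limma-voom and with the block, and ranged from -0.21 (without SOT library 1) to 0.31 as single libraries were left out. TNF ranged from -3.95 to 0.2, with 0.04 without untreated library 1 and 0.2 without SOT library 2 or 3. FN1 ranged from -1.03 to 0.21, with 0.05 without SOT library 1 and 0.21 without SOT library 3. NQO1 ranged from -0.25 (without SOT library 2) to 0.31. The other three changed sign without SOT library 3: TNFRSF17 ranged from -0.15 to 1.29, ACTA2 from -0.74 to 0.15 and KRT13 from -0.1 to 0.57. Among other genes in the text 10 turned. BLNK had 0.01 with upper-quartile scaling, 0.02 on log2(FPKM + 0.1) and 0.03 on log2(FPKM + 1), SPP1 and XDH had 0.01 with upper-quartile scaling, and DUOX1 and NOX4 had -0.04 and -0.05 by limma-voom. Without 1 library the ranges were -0.32 to 0.15 for BLNK, -0.95 to 0.51 for SPP1, -0.96 to 0.32 for XDH, -0.29 to 0.41 for DUOX1, -0.56 to 0.38 for NOX4, -0.64 to 0.24 for C1QC, -0.57 to 0.10 for CD300LG, -0.12 to 0.58 for AIFM2, -1.05 to 1.46 for DUOX2 and -0.04 to 1.51 for IRF7. None of these genes passed with all libraries.

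With 3 libraries per group, and an untreated library that lay between the other two, the spread was estimated from few values. A gene that stays under the floor of 3 counts in both groups cannot show a difference at this depth.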

Other observations

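Receptors of the CD300 family were looked at after the CMRF35-like gene had passed, so what follows was chosen with their values known. The table held 7 such genes, counting the called gene, whose place was fixed by its choice. Of these 7, 5 with the called gene included lay below all untreated libraries in all SOT libraries and none above. Of all tested genes 12.4% lay below. The macrophage markers (14 of 19 below, median -0.89) moved with the CD300 genes, and their part in the difference was not tested. LOC103346275 and LOC103346273, annotated as further copies of CMRF35-like molecule 6, lie on either side of LOC103346274 on the same scaffold. LOC103346275 was at 23.9, 40.7 and 35.8 CPM in untreated and 8.71, 6.41 and 8.4 CPM in SOT libraries (log2 fold change -2.09, adjusted p = 0.0749, edgeR). LOC103346273 was at 29.5, 45.7 and 37.3 CPM against 11.1, 7.7 and 6.63 CPM (log2 fold change -2.14, adjusted p = 0.0749). CD300LF, on the same scaffold, was at 24.0, 12.8 and 21.1 CPM against 8.87, 5.44 and 3.96 CPM. CD300LG, which endothelial cells express, overlapped, with a log2 fold change of -0.20. These copies may share reads, so that they are not independent of each other.

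Genes that act with LAT2 downstream of immune receptors were likewise picked after its call. Of 14 genes, 12 lay below the untreated range and none above, beside 12.4% of all tested genes below. Over all 14 genes the log2 fold changes ran from -1.38 to -0.06. The macrophage markers (14 of 19 below, median -0.89) and neutrophil markers (7 of 12 below, median -1.54) moved with them, and their part in the difference was not tested. SYK, the kinase that phosphorylates such adaptors, was at 48.5, 72.8 and 62.0 CPM in untreated and 31.7, 25.4 and 35 CPM in SOT libraries (adjusted p = 0.173, edgeR). TYROBP, the DAP12 adaptor of many myeloid receptors, was at 229, 272 and 254 CPM against 138, 99.1 and 61.7 CPM. BLNK, an adaptor of B cells, overlapped at 9.77, 9.32 and 11.0 CPM against 6.6, 8.97 and 13.4 CPM. None of the 14 passed.

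MHC class II genes, which present antigen to T cells, were also chosen after their values were seen. The invariant chain gene CD74 and CIITA, the class II transactivator, were counted with them. Of the 13 genes 4 lay below the untreated range and none above, beside 12.4% of all tested genes below, and similar chains may share reads. LOC100343144, annotated as a DQ alpha chain, was at 834, 1460 and 1220 CPM in untreated and 312, 299 and 375 CPM in SOT libraries (log2 fold change -1.83, adjusted p = 0.0749, edgeR). CD74 was at 2360, 3790 and 3270 CPM against 1460, 1380 and 2260 CPM, and its groups overlapped with the deposited FPKM. SOT library 3 held the highest SOT value in both, the library that also stood above the untreated range in 17 of 18 T and NK cell genes.

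Large folds at low levels were mostly uneven over the SOT libraries. MSMB, which encodes the secreted beta-microseminoprotein, was at 0.188, 0.233 and 0 CPM in untreated and 2.29, 15.6 and 58.1 CPM in SOT libraries, with at most 0.153 CPM in normal folds. MS4A3, a gene of granulocyte precursors, was at 5.31, 9.8 and 6.55 CPM against 1.06, 0.449 and 0 CPM and had no counts in normal folds. MYBPC3, a myosin-binding protein of the heart, was at 23.8, 15.1 and 18.0 CPM against 4.7, 0.86 and 0.743 CPM. None of these passed.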
